A study of Homo sapiens with 18 samples.

Results

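The estrogen receptor gene ESR1 and genes known to be induced by estrogen in breast cancer cells, 38 in all, were followed in 2 breast cancer cell lines made to overexpress G0S2. The genes were taken by name from the rows of the deposited expression tables. All 38 were listed in the T47D table, which holds 14768 genes, and 27 were listed in the MDA-MB-231 table, which holds 14308. Either table lists 16410 genes in all. The 11 genes listed for T47D alone were ESR1, PGR, TFF1, KRT13, PDZK1, RET, CXCL12, OLFM1, ABAT, KCNK5 and ELOVL2, and their levels in MDA-MB-231 were not analysed here.

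Estrogen receptor alpha, the product of ESR1, is a nuclear receptor. Bound by estradiol, it pairs with itself, binds estrogen response elements in promoters and more distant enhancers with the help of pioneer factors such as FOXA1 and GATA3, and recruits coactivators to genes that drive growth of luminal breast cells. PGR, which encodes the progesterone receptor, and TFF1, a secreted trefoil peptide, are its classical readouts in breast tumours, and GREB1 encodes a chromatin-bound partner of the receptor that it also induces.

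RNA sequencing was carried out on 18 libraries in 6 groups of 3. T47D is a luminal breast cancer line that expresses estrogen receptor, and MDA-MB-231 is a receptor-negative line of mesenchymal character. In each line the labels name a control without doxycycline (day 0) and cells with G0S2 overexpression after 3 or 15 days of doxycycline, an antibiotic that switches on inducible transgenes, and the growth protocol gives a dose of 0.5 ug/ml. That protocol names only the 15 days, on every sample, so the 0, 3 and 15 days were taken from the sample titles. G0S2 encodes an inhibitor of the lipase ATGL that is also a target of retinoic acid and interferon signalling. The series' title speaks of antiestrogenic responses, and no library is labelled as treated with estrogen, an antiestrogen or doxycycline without the transgene. All controls are labelled day 0, and no untreated cells of day 3 or day 15 are among the libraries. What G0S2, doxycycline, the vector or time in culture did cannot be told apart. Neither the promoter nor the clonality of the lines is given in the sources used here.

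The libraries held 37012519 to 52380759 reads assigned to listed genes in MDA-MB-231 and 40123505 to 50973067 in T47D. G0S2 lay between 25.0 and 25.5 counts per 1000000 reads (CPM) in MDA-MB-231 controls and at or below 0.900 CPM in T47D controls, and every doxycycline library of either line had at least 736 CPM. The markers of luminal receptor-positive epithelium, 8 genes with ESR1 among them, were all listed in T47D and summed to 7330.0 to 7622 CPM in controls, 7643 to 7837 CPM in the day 3 libraries and 7052 to 7607 CPM in those of day 15. In MDA-MB-231, 5 of the 8 were listed, without ESR1, FOXA1 and TFF3, and summed to 900.8 to 964.5 CPM in controls against 811.3 to 840.7 CPM by day 15. Of 8 basal or mesenchymal markers, CD44 and TP63 were listed in T47D, summing to 11.0 to 12.6 CPM in controls and 7.09 to 8.61 CPM at day 15, and VIM, CD44, TP63, ZEB1 and CAV1 in MDA-MB-231, summing to 4664 to 4702 CPM and 4912 to 5002 CPM. Of 7 fibroblast markers, T47D listed COL1A1 and COL3A1, which summed to 34.5 to 40.1 CPM in controls and 24.7 to 27.3 CPM at day 15. Of 7 leukocyte and 5 endothelial markers, 3 and 0 were listed in T47D, with sums of 1.30 to 2.04 CPM over all its libraries for the former. MDA-MB-231 listed 4, 3 and 2 of the fibroblast, leukocyte and endothelial markers, with sums of 13.6 to 16.7, 72.3 to 79.4 and 8.38 to 10.3 CPM over all its libraries. The part of these shifts in the results below was not tested. In whole-culture RNA, fewer cells of a type and less RNA per cell cannot be told apart.

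Promoter sequence was searched for the element that the receptor binds, to show which of these genes carry its letters close to an annotated start. RefSeq promoter windows of the GRCh38.p14 assembly, 250 bases before to 50 after an annotated start of a gene, were at hand for 31 of the 38 genes (61 windows) and not for TFF1, GREB1, KRT13, RERG, ADCY9, MAPT and MYBL1. The full palindrome GGTCANNNTGACC was in none of the 31, and in 20 of all 35116 windows (0.057%). A single arm with 1 more base, AGGTCA or its reverse complement TGACCT, was in a window of 4 genes (12.9%), against 16.5% of the 27305 genes with a window. Counted by window, the arm was in 5 of the 61 windows of the set, against 13.8% of all windows. Such arms are shared with other nuclear receptors, and the receptor is known to bind mostly at distant enhancers, so these matches describe letters and not bound sites. The 4 stretches are given on the strand of the gene, with 20 bases on either side and the arm in capitals, because their genes went different ways in T47D: PDZK1 fell, while RARA, CXCL12 and MREG did not pass the test in any comparison.
PDZK1: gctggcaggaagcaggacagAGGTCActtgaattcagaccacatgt
RARA: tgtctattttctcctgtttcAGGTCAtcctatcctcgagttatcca
CXCL12: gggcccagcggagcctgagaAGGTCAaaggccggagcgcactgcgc
MREG: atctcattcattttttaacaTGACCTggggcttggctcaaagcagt
Distances are to the RefSeq start of the window, which need not be the outermost start of the gene. The PDZK1 stretch lies at chr1:145707444-145707489, minus strand, with its arm starting 69 bases before such a start. The RARA stretch lies at chr17:40308930-40308975, plus strand, 230 bases before such a start. The CXCL12 stretch lies at chr10:44385281-44385326, minus strand, 209 bases before such a start, and the MREG stretch at chr2:216034174-216034219, minus strand, 103 bases before one. The PDZK1 and CXCL12 stretches fall inside the gene spans of GENCODE release 29, which end at 145708148 and 44386493 on the minus strand.

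Per kilobase of exon (union of exons in GENCODE release 29 on GRCh38; the annotation the authors counted on is not given in the sources used here), the most abundant of the 38 in T47D control cells was STC2, a secreted glycoprotein, at 373 CPM per kb, followed by IGFBP4, which binds insulin-like growth factors, at 193 and the carbonic anhydrase gene CA12 at 192 CPM per kb. The chemokine gene CXCL12 stood at 141 CPM per kb and AREG, a ligand of the EGF receptor, at 103. PGR was at 53.3, GREB1 at 40.1 and ESR1 itself at 20.0 CPM per kb, the last ranking 16 of 38. TFF1 was at 7.02 CPM per kb (rank 28), and at the bottom were RET at 0.247, ELOVL2 at 0.153 and the antiapoptotic gene BCL2 at 0.0417 CPM per kb. In MDA-MB-231 controls IGFBP4 was first at 534 CPM per kb, then AREG at 26.0, MYBL1 at 20.2 and TIPARP at 18.8, whereas GREB1 was at 0.121 CPM per kb.

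Between the lines, 22 of the 27 genes listed in both had every T47D library above every MDA-MB-231 library, whatever the treatment, where 43.5% of the 12666 genes listed in both tables did. SGK1, TIPARP, IGFBP4 and BCL2 lay the other way in every library, as did 34.9% of genes, and ADCY9 overlapped. STC2 was at 2283 ± 51.0 CPM (SD, n = 3) in T47D controls and 1.18 ± 0.162 CPM in MDA-MB-231 controls, and GREB1 at 496 ± 8.85 CPM and 1.49 ± 0.0527 CPM. BCL2 was at 0.491 ± 0.135 CPM in T47D, against 20.8 ± 1.08 CPM in MDA-MB-231. The 2 tables were normalised separately, so these levels are set side by side without a test. Of the 38 genes, 28.9% were listed in T47D alone, against 14.2% of all genes in the T47D table.

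**Figure D1:**
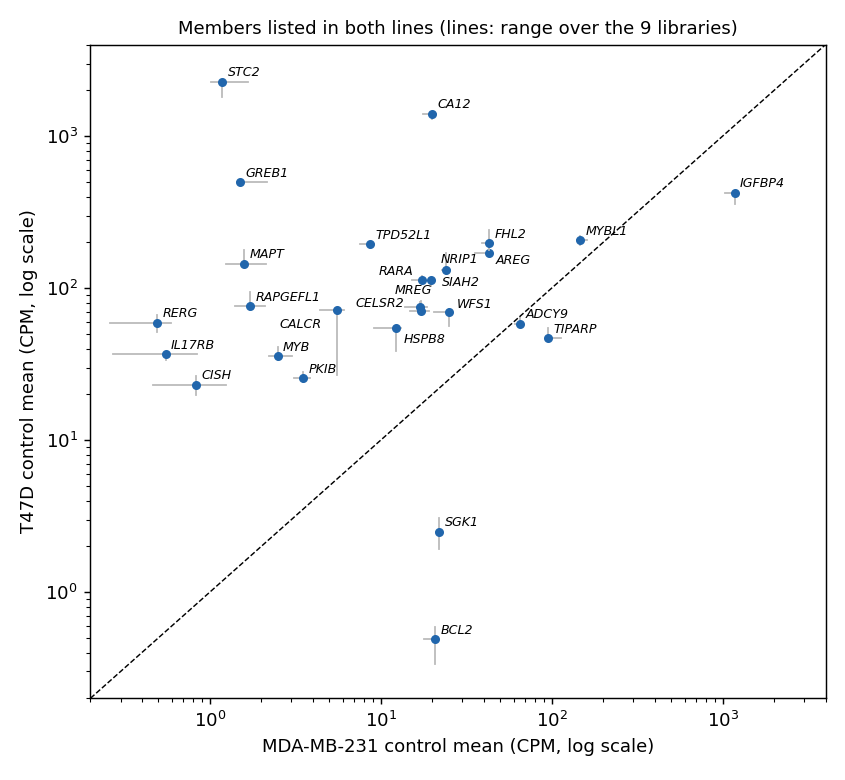
Mean control level of the 27 genes listed in both lines, MDA-MB-231 on the x axis and T47D on the y axis (CPM, log scales). Points are means of 3 control libraries, grey lines the range over all 9 libraries of a line, and the dashed line marks equal levels; 22 genes lie above it, among them STC2, GREB1 and CA12, and the 5 on or below it are ADCY9, SGK1, TIPARP, IGFBP4 and BCL2.

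In T47D, 4 of the 38 genes were called at day 3, and by day 15 the called genes went in both directions. A gene was called where limma's moderated test, run on log2 values of all genes of the line, gave an adjusted p (Benjamini-Hochberg) under 0.05. At day 3 the receptor genes CALCR and PGR and the scaffold gene PDZK1 fell, and the receptor tyrosine kinase gene RET rose. This is 10.5% of the 38, against 1.88% of all T47D genes (0.718% lower and 1.16% higher). At day 15, 18 were called (47.4%, against 11.2% of all genes), 11 of them lower and 7 higher. Of all genes, 6.23% were called lower and 5.00% higher. Between day 3 and day 15, 15 were called (39.5%, against 5.58%), 9 lower (3.35% of all genes) and 6 higher (2.23%). The libraries of the 2 groups did not overlap for 18 of the 38 at day 3 (21.9% of all genes), 23 at day 15 (26.3%) and 21 between the days (22.4%). The median log2 difference over the 38 genes was -0.042 at day 3, -0.053 at day 15 and -0.0027 between them, beside -0.0026, 0.0028 and 0.0021 over all genes, and the individual differences at day 15 ran from -1.40 to 0.80. All 3 comparisons share libraries. The count at day 3 fell to 2 when control 1, control 3 or day 3 library 2 was left out, with 192, 214 and 194 of all genes called in place of 277. It was 10 when the 6 libraries of that comparison were fitted alone, a fit that called 921 of all genes (6.24%). Without day 15 library 2, 22 of the 38 were called against control and 3705 of all genes in place of 1659.

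**Figure D2:**
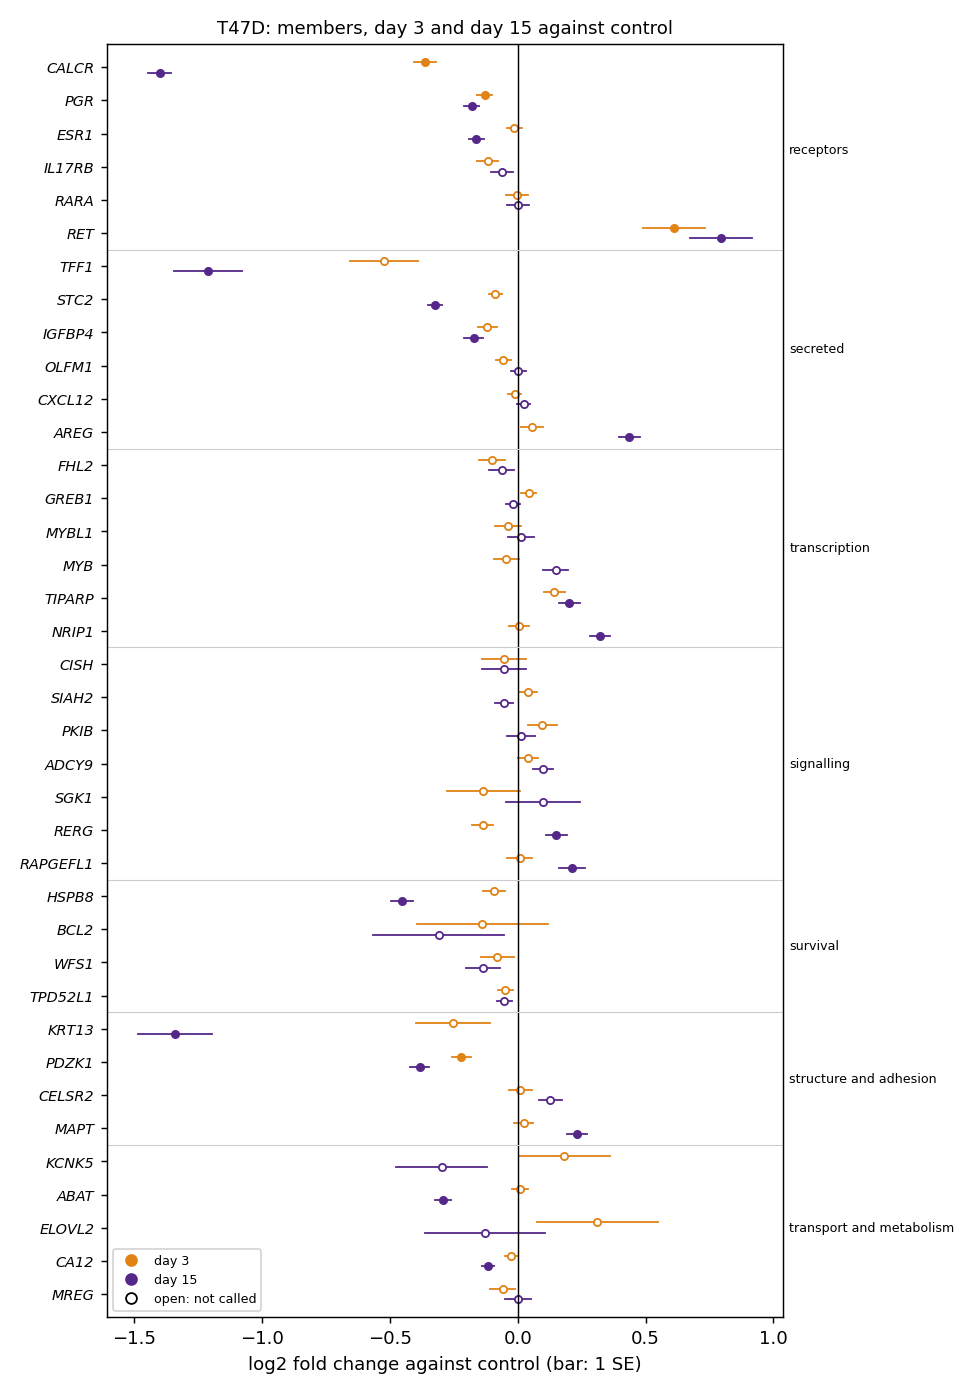
Log2 difference from control in T47D for each of the 38 genes at day 3 and at day 15, with bars of 1 SE from limma; filled points are those called at adjusted p under 0.05. CALCR, KRT13 and TFF1 lie farthest below 0 at day 15, at -1.40, -1.34 and -1.21, and RET farthest above, at 0.80.

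ESR1 (chr6:151656691-152129619, plus strand, GENCODE 29) was lower at day 15 and was not called at day 3. It was at 279, 279.6 and 273 CPM in the control libraries, 277, 277 and 269.7 CPM at day 3 and 245, 246 and 253 CPM at day 15. The 3 day 15 libraries were below all 6 others, which overlapped each other. By limma the day 15 log2 difference from control was -0.16 (SE 0.0293, adjusted p = 0.00230), the day 15 mean being 89.4% of the control mean, and the day 3 difference was -0.014 (95% interval -0.076 to 0.049). From day 3 to day 15 it fell by 0.15 on the log2 scale (adjusted p = 0.00739). That last call was lost without day 3 library 1 (adjusted p = 0.0582) or day 3 library 2 (0.0575).

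PGR (chr11:101029624-101130524, minus strand), whose product mediates the progesterone response, was at 838, 819 and 804 CPM in the control libraries, 746, 764 and 739 CPM at day 3 and 714, 713 and 744 CPM at day 15. All 6 doxycycline libraries were below the 3 controls, and the day 3 and day 15 libraries overlapped. The log2 difference was -0.13 (SE 0.0293, adjusted p = 0.0350) at day 3, then -0.18 (SE 0.0293, adjusted p = 0.00101) at day 15 by limma, and -0.051 (95% interval -0.11 to 0.012) between the days. The day 3 call was lost on leaving out any 1 of the 6 libraries, control 1 (adjusted p = 0.206), control 2 (0.180), control 3 (0.0577), day 3 library 1 (0.201), day 3 library 2 (0.0847) or day 3 library 3 (0.208). It was also lost in 3 of the 7 other alternatives, among them centring on the median (adjusted p = 0.0698) and no trend or robust moderation (0.195), while the day 15 call held in all 13 alternatives run.

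CALCR (chr7:93424487-93574730, minus strand), the gene of the calcitonin receptor, fell farthest among the 38. It was at 73.1, 71.2 and 70.7 CPM in the control libraries, 54.8, 58.9 and 53.5 CPM at day 3 and 27.1, 26.7 and 27.5 CPM at day 15. No library of one group reached into another, and the levels stepped down at each time. The limma log2 difference was -0.36 (SE 0.0439, adjusted p = 1.41e-04) at day 3, then -1.40 (SE 0.0439, adjusted p = 3.55e-11) at day 15, when the mean was 37.8% of control.

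RET, the receptor for ligands of the GDNF family, moved the other way. Its level was low throughout, at 1.69, 1.80 and 1.63 CPM in the control libraries, 2.47, 2.99 and 2.49 CPM at day 3 and 2.84, 3.05 and 3.13 CPM at day 15 (65 to 150 reads). Every doxycycline library was above every control. The limma log2 difference was 0.61 (SE 0.120, adjusted p = 0.0123) at day 3, then 0.80 (SE 0.120, adjusted p = 5.71e-04) at day 15. Its day 3 call was lost without control 1 (adjusted p = 0.0601), control 3 (0.0631) or day 3 library 2 (0.0956), and between the days it did not pass the test (0.18, 95% interval -0.074 to 0.44). The other receptors, IL17RB for IL-17B and IL-25 and RARA for retinoic acid, were not called at either time, with day 15 differences of -0.063 (95% interval -0.15 to 0.028) and 0.0011 (-0.094 to 0.096).

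Among the secreted products, TFF1 (chr21:42362282-42366594, minus strand) fell by day 15. It was at 3.82, 4.08 and 3.71 CPM in the control libraries, 2.56, 2.41 and 3.07 CPM at day 3 and 1.79, 1.38 and 1.76 CPM at day 15, on 63 to 206 reads. The 3 groups did not overlap. The limma log2 difference of -0.52 (SE 0.134, adjusted p = 0.0730) at day 3 did not pass the threshold, although it did with a pseudocount of 1 CPM (adjusted p = 0.0394), with voom weights on the recovered reads (0.0402) and with the 6 libraries alone (0.00208). At day 15 it was -1.21 (SE 0.134, adjusted p = 3.42e-05), and from day 3 to day 15 -0.69 (SE 0.134, adjusted p = 0.00676).

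STC2 was at 2232, 2283 and 2334 CPM in the control libraries, 2163, 2131 and 2150.4 CPM at day 3 and 1812, 1865 and 1796 CPM at day 15. All day 15 libraries were below all others, and the day 3 libraries below the controls. The limma log2 difference was -0.32 (SE 0.0264, adjusted p = 1.57e-06) at day 15 and -0.087 (adjusted p = 0.162) at day 3. IGFBP4 was at 425, 418 and 432 CPM in the control libraries, 394, 386 and 395 CPM at day 3 and 380.1, 396 and 356 CPM at day 15, with every doxycycline library below every control. Its day 15 difference was -0.17 (SE 0.0364, adjusted p = 0.00675), which did not pass without trend and robust moderation (adjusted p = 0.0543). AREG went against these 3 and rose: it was at 174, 173 and 162 CPM in the control libraries, 176, 176 and 177 CPM at day 3 and 232, 216 and 243 CPM at day 15. Its day 15 libraries stood above all others, and its day 15 difference by limma was 0.44 (SE 0.0419, adjusted p = 8.95e-06), 135% of the control mean. CXCL12 and OLFM1, a secreted olfactomedin, were not called at any time, with day 15 differences of 0.023 (95% interval -0.034 to 0.080) and 0.0023 (-0.059 to 0.064).

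Of the genes for transcription factors and cofactors, GREB1 (chr2:11482341-11642788, plus strand) was not called in any comparison. It was at 487, 496 and 504 CPM in the control libraries, 507, 511 and 515 CPM at day 3 and 489.6, 502 and 476 CPM at day 15. Its day 15 libraries overlapped the controls, and the day 15 difference by limma was -0.019 (95% interval -0.081 to 0.044, adjusted p = 0.760), an interval that does not reach the -0.18 of PGR or the -1.21 of TFF1. At day 3 the GREB1 difference was 0.044 (adjusted p = 0.705), with the 3 libraries just above the controls. All GREB1 day 15 libraries lay below all day 3 libraries, at -0.062 (95% interval -0.12 to 2.73e-04, adjusted p = 0.281), and without day 15 library 2 that difference was called, at -0.081 (adjusted p = 0.0202). NRIP1, a corepressor that binds the ligand-bound receptor, rose late: it was at 136, 133 and 125 CPM in the control libraries, 131, 136 and 129 CPM at day 3 and 164, 159.6 and 169 CPM at day 15. Its control and day 3 libraries overlapped and its day 15 libraries were above both, and the limma difference was 0.32 (SE 0.0396, adjusted p = 9.33e-05) at day 15. TIPARP, an ADP-ribosyltransferase that also represses the aryl hydrocarbon receptor, was at 47.5, 44.9 and 47.6 CPM in the control libraries, 50.9, 52.8 and 50.9 CPM at day 3 and 53.3, 52.9 and 54.8 CPM at day 15, with a day 15 difference of 0.20 (SE 0.0406, adjusted p = 0.00503). All 6 doxycycline libraries lay above the controls.

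MYB, a transcription factor gene that the receptor is known to regulate, was at 34.5, 35.8 and 36.2 CPM in the control libraries, 33.5, 34.3 and 35.4 CPM at day 3 and 39.9, 37.1 and 41.1 CPM at day 15. It passed the test only from day 3 to day 15 (0.19, SE 0.0485, adjusted p = 0.0316), a call lost without day 3 library 1 (adjusted p = 0.155), day 3 library 2 (0.124), day 3 library 3 (0.0643), day 15 library 1 (0.122) or day 15 library 3 (0.0790) and in 4 of 7 other alternatives, while its difference from control at day 15 was 0.15 (adjusted p = 0.0662). Leaving out day 15 library 2, the MYB difference from control was 0.19 (adjusted p = 0.00275). FHL2, a LIM-domain cofactor, and MYBL1 were not called, with day 15 differences of -0.062 (95% interval -0.17 to 0.044) and 0.012 (-0.098 to 0.12). Without day 15 library 2 the FHL2 difference was -0.13 (adjusted p = 0.00107).

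Of the 7 signalling genes, 2 passed the test at day 15. RERG, a small GTPase named for its regulation by estrogen, was at 61.1, 59.1 and 57.0 CPM in the control libraries, 54.8, 55.0 and 51.3 CPM at day 3 and 64.9, 65.2 and 66.7 CPM at day 15. Day 3 libraries lay below and day 15 libraries above the controls. The limma difference was -0.14 (adjusted p = 0.171) at day 3 and then 0.15 (SE 0.0419, adjusted p = 0.0323) at day 15. Between the days it was 0.29 (SE 0.0419, adjusted p = 6.98e-04). The call against control at day 15 was lost without control 2 (adjusted p = 0.107), control 3 (0.128), day 15 library 1 (0.0795) or day 15 library 3 (0.0599), and in 4 of the 7 other alternatives, among them centring (0.0721), the 6 libraries alone (0.0723) and no trend or robust moderation (0.0732), while the call between the days held in every alternative run. RAPGEFL1, related to exchange factors for Rap GTPases, was at 75.1, 71.9 and 80.3 CPM in the control libraries, 75.1, 76.8 and 76.4 CPM at day 3 and 84.8, 94.5 and 84.0 CPM at day 15, with a day 15 difference of 0.21 (SE 0.0502, adjusted p = 0.0142). That call was lost without control 1 (adjusted p = 0.0636) or control 2 (0.0904), with the 6 libraries alone (0.0606) and without trend and robust moderation (0.0705). SGK1, a kinase, CISH, an inhibitor of cytokine signalling, PKIB, an inhibitor of protein kinase A, the adenylyl cyclase gene ADCY9 and the ubiquitin ligase gene SIAH2 were not called against control, with day 15 differences between -0.054 (CISH) and 0.099 (SGK1). The 95% interval at day 15 was -0.21 to 0.41 for SGK1, -0.24 to 0.13 for CISH, -0.11 to 0.13 for PKIB, 0.012 to 0.18 for ADCY9 and -0.13 to 0.024 for SIAH2. Without day 15 library 2 CISH was at -0.17 (adjusted p = 0.0283).

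HSPB8, a small heat shock protein of the autophagy machinery, was the gene of the survival group that fell: it was at 51.6, 55.8 and 56.3 CPM in the control libraries, 51.7, 51.0 and 50.7 CPM at day 3 and 38.8, 41.0 and 39.7 CPM at day 15. Its day 15 libraries were below all others, and the limma difference was -0.45 (SE 0.0441, adjusted p = 9.78e-06), with -0.093 (adjusted p = 0.504) at day 3. WFS1, an endoplasmic reticulum membrane protein, was at -0.14 (adjusted p = 0.225) at day 15, and at -0.21 (adjusted p = 0.000541) without day 15 library 2. TPD52L1 was at -0.053 (95% interval -0.12 to 0.012). BCL2 rested on 16 to 26 reads a library and its day 15 interval ran from -0.86 to 0.24.

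In the structural group, KRT13 (chr17:41500981-41505705, minus strand), a keratin of stratified epithelia, was at 3.06, 3.05 and 3.46 CPM in the control libraries, 2.30, 2.63 and 3.12 CPM at day 3 and 1.42, 1.10 and 1.15 CPM at day 15, on 50 to 154 reads. Day 3 libraries overlapped the controls, and day 15 libraries were below both. The limma difference was -0.25 (adjusted p = 0.626) at day 3, then -1.34 (SE 0.145, adjusted p = 2.77e-05) at day 15, 38.3% of the control mean. PDZK1, a scaffold of membrane transporters whose promoter stretch was given first, has a near-identical pseudogene copy, and how reads mapping to both were counted is not given in the sources used here. It was at 89.4, 93.2 and 93.2 CPM in the control libraries, 79.3, 78.2 and 79.1 CPM at day 3 and 71.4, 67.8 and 72.2 CPM at day 15. Its groups did not overlap, and the differences were -0.22 (SE 0.0372, adjusted p = 0.00348) at day 3, then -0.38 (SE 0.0372, adjusted p = 9.70e-06) at day 15 by limma. The further fall of PDZK1 from day 3, -0.16 (adjusted p = 0.0190), was lost without day 3 library 1 (adjusted p = 0.0970), day 3 library 2 (0.0743), day 3 library 3 (0.0804) or day 15 library 1 (0.0522), and in 4 of 7 other alternatives. MAPT, the microtubule protein tau, rose late: it was at 142, 147 and 145 CPM in the control libraries, 150.2, 145 and 146 CPM at day 3 and 169, 179 and 162 CPM at day 15, with a day 15 difference of 0.23 (SE 0.0381, adjusted p = 0.00111). All MAPT day 15 libraries were above the rest. CELSR2, an atypical cadherin, was at 0.13 (adjusted p = 0.0858) at day 15, and at 0.17 (adjusted p = 0.0174) without day 15 library 3.

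Of the 5 genes of transport and metabolism, 2 fell late. ABAT, which breaks down GABA, was at 114, 109.6 and 112 CPM in the control libraries, 114, 112 and 112 CPM at day 3 and 91.6, 91.8 and 90.6 CPM at day 15. Its day 15 libraries were below the rest, and the limma difference was -0.29 (SE 0.0319, adjusted p = 2.94e-05). CA12 was at 1390.0, 1414 and 1405 CPM in the control libraries, 1369.6, 1383 and 1384 CPM at day 3 and 1295, 1294 and 1289 CPM at day 15, and its differences were -0.12 (SE 0.0237, adjusted p = 0.00499) at day 15 and -0.092 (adjusted p = 0.0354) from day 3. The latter was lost without day 3 library 1 (adjusted p = 0.123), day 3 library 2 (0.160), day 3 library 3 (0.123), day 15 library 1 (0.101) or day 15 library 3 (0.0525), and in 4 of 7 other alternatives. MREG, a melanosome transport gene, the potassium channel gene KCNK5 and the fatty acid elongase gene ELOVL2 were not called, at 0.0010 (95% interval -0.11 to 0.11), -0.30 (-0.68 to 0.085) and -0.13 (-0.63 to 0.38). KCNK5 and ELOVL2 rested on 58 to 114 reads and 21 to 41 reads a library.

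**Figure D3:**
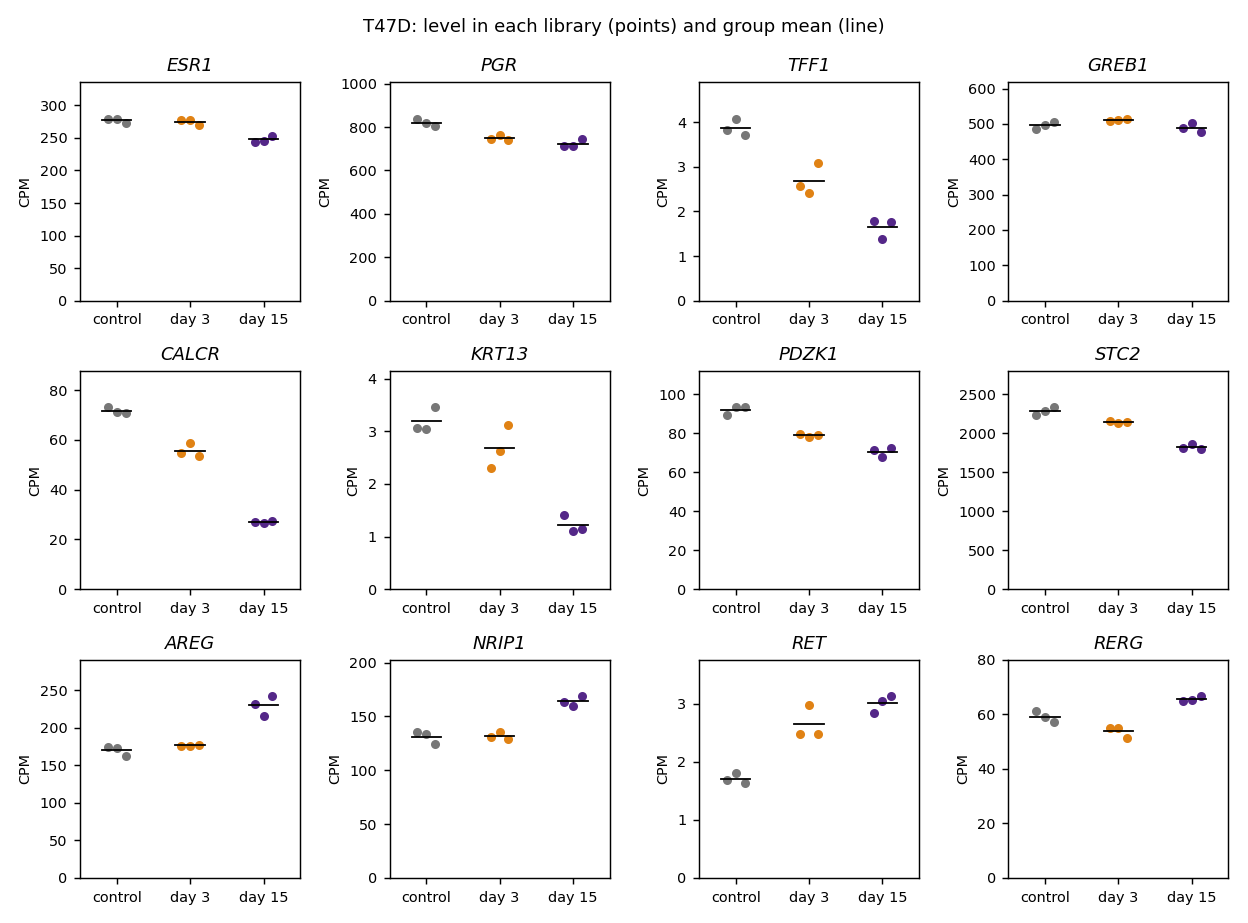
Level in each T47D library (points, CPM on linear axes from 0) and group mean (line) for 12 of the 38 genes, 3 libraries per group. ESR1 and STC2 are lower at day 15, TFF1, CALCR and PDZK1 step down at each time, GREB1 overlaps control at day 15, and AREG, NRIP1 and RET are higher at day 15.

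The 18 T47D genes called at day 15 thus fell into those already called at day 3 (CALCR, PDZK1, PGR and RET, 4 genes) and the other 14. Of the 18, 14 were also called against day 3. PGR, RET, TIPARP and IGFBP4 were the 4 that were not, with changes from day 3 to day 15 of -0.051, 0.18, 0.058 and -0.054 on the log2 scale. The 95% intervals of those changes were -0.11 to 0.012 for PGR, -0.074 to 0.44 for RET, -0.029 to 0.15 for TIPARP and -0.13 to 0.025 for IGFBP4. RAPGEFL1, at 0.20 from day 3 to day 15 (adjusted p = 0.0299), lost that call without day 3 library 1 (adjusted p = 0.137), day 3 library 2 (0.103), day 3 library 3 (0.101) or day 15 library 1 (0.0541), and in 3 of 7 other alternatives. Each of the 3 falls of more than 1 log2 unit at day 15 (CALCR, KRT13 and TFF1) was larger between day 3 and day 15 than between control and day 3, at -1.04 against -0.36 in CALCR, -1.09 against -0.25 in KRT13 and -0.69 against -0.52 in TFF1. The difference between those 2 steps was not tested. Without day 15 library 2, limma called 21 of the 38 between the days and 2604 of all genes in place of 824. The genes added were GREB1, SIAH2 at -0.11 (adjusted p = 0.0194), IGFBP4 at -0.089 (0.0221), WFS1 at -0.13 (0.0349), KCNK5 at -0.63 (0.00936) and MYBL1 at 0.11 (0.0242). CELSR2 was called between the days without day 15 library 3, at 0.16 (adjusted p = 0.0418).

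The other genes of the pathway were read from lists of receptors, cofactors and estrogen-related enzymes. Of all T47D genes, 5.00% were called higher and 6.23% lower at day 15. Of 11 nuclear and membrane receptor genes listed in T47D, PGR and ESR1 were the 2 that fell at day 15. Of 14 pioneer and partner factors, 5 rose and 1 fell at day 15. They were RUNX1 (0.25, adjusted p = 9.41e-05), GATA3 (0.18, adjusted p = 8.69e-04) and TFAP2A (0.13, adjusted p = 0.0143), with TFAP2C and GRHL2 also higher, and the aryl hydrocarbon receptor gene AHR (-0.30, adjusted p = 1.45e-04), which fell. FOXA1, a pioneer factor of the receptor, was not called (-0.013, 95% interval -0.070 to 0.044). Of 15 coactivators 1 was called, EP300 (0.11, adjusted p = 0.0443), and of 9 corepressors 0 at day 15 by limma (0 at an unadjusted p under 0.05). At day 3 the corepressor gene TBL1XR1 fell (-0.15, SE 0.0358, adjusted p = 0.0483).

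Of 12 enzymes that make or inactivate estrogen, 2 rose and 1 fell at day 15 (25.0%, against 11.2% of all T47D genes). HSD17B11, a hydroxysteroid dehydrogenase of lipid droplets, went from 0.160 ± 0.0364 CPM (SD, n = 3) in T47D controls to 0.849 ± 0.0856 CPM at day 3 and 2.60 ± 0.214 CPM at day 15, with limma log2 differences of 2.02 (SE 0.195, adjusted p = 1.18e-05) and 3.57 (SE 0.195, adjusted p = 2.39e-08). Its control libraries held 5 to 10 reads, so the size of that rise rests on few reads. HSD17B1, which reduces estrone to estradiol, fell at day 3 (-0.35, SE 0.0738, adjusted p = 0.0232) and further by day 15 (-0.88, SE 0.0738, adjusted p = 2.07e-06). STS, the steroid sulfatase that frees estrone from its sulfate, rose at day 15 (0.65, SE 0.0540, adjusted p = 1.82e-06). The other 9 did not pass the test at day 15.

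A further list of 39 estrogen-induced genes outside the 38 moved both ways in T47D at day 15. Of these, 7 were called higher and 10 lower (43.6%, against 11.2% of all T47D genes), with a median of -0.058, beside 0.0028 over all genes. The 4 largest were EGR3 (1.13, adjusted p = 0.00225), an early response transcription factor, TSKU (-0.96, adjusted p = 1.92e-04), a secreted leucine-rich protein, TFF3 (-0.92, adjusted p = 5.35e-04), a second trefoil peptide, and IRS1 (-0.71, adjusted p = 4.80e-04), the adaptor of insulin and IGF receptors. At day 3, TFF3 (-0.63, SE 0.138, adjusted p = 0.0283) and AGR2 (-0.14, SE 0.0261, adjusted p = 0.00759) were the 2 called, both lower (5.13%, against 1.88% of all T47D genes). Of 10 genes known to be repressed by estrogen none rose at day 15 and 2 fell by limma (20.0%, against 11.2% of all T47D genes). They were EGFR (-0.19, adjusted p = 0.00985) and EFEMP1 (-0.13, adjusted p = 0.0132). At an unadjusted p under 0.05, 5 of the 10 passed.

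In MDA-MB-231, where ESR1 was not listed, 8 of the 27 listed genes were called in any comparison (29.6%, against 11.7% of all genes of the line). At day 3, 1 of 27 was called (3.7%, against 1.77% of all MDA-MB-231 genes, 0.874% lower and 0.895% higher): IGFBP4 fell. At day 15, 7 of 27 were called (25.9%, against 8.20%, with 4.77% lower and 3.42% higher). GREB1, TIPARP and MYBL1 rose and HSPB8, WFS1, AREG and IGFBP4 fell. From day 3 to day 15, 5 were called (18.5%, against 5.33%), 3 lower (2.86% of all genes) and 2 higher (2.47%). Groups did not overlap for 5 of the 27 at day 3 (20.5% of all genes), 10 at day 15 (24.3%) and 5 between the days (25.1%). The median over the 27 was -0.0057 at day 3, -0.071 at day 15 and -0.027 between them, beside 0.0016, 0.0010 and -0.0068 over all genes. The day 15 count fell to 4 without control 1 or without control 2, where 471 and 457 of all genes were called in place of 1173. The count between the days fell to 1 without day 3 library 1 or day 15 library 1, to 2 without day 3 library 2 and to 3 without day 15 library 3, where 124, 308, 143 and 319 of all genes were called in place of 763. Without day 15 library 2, 1897 of all genes were called against control (7 of the 27) and 1664 between the days (6 of the 27). Without trend and robust moderation limma called 4 at day 15 (HSPB8, MYBL1 and IGFBP4 were lost, at adjusted p = 0.0956, 0.153 and 0.0553) and 0 between the days, where 5 passed an unadjusted p under 0.05. That fit called 232 and 32 of all genes.

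**Figure D4:**
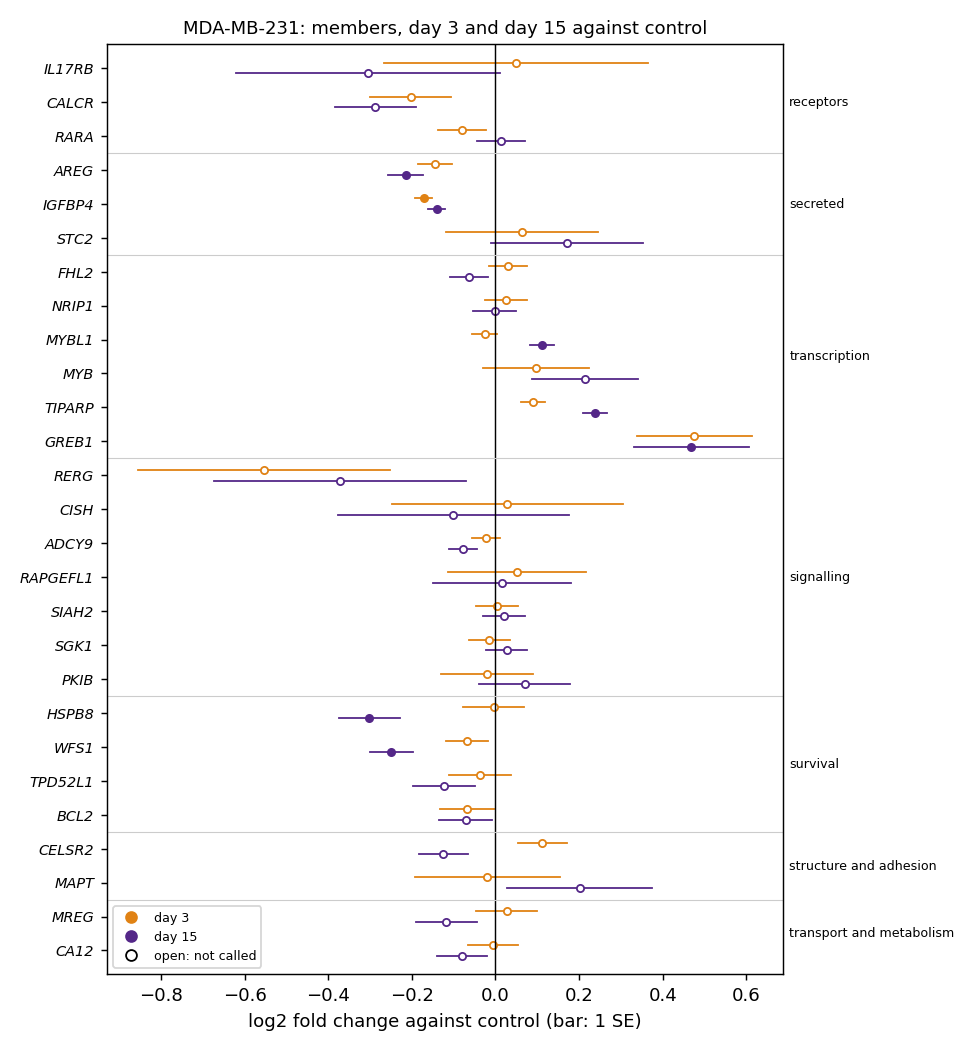
Log2 difference from control in MDA-MB-231 for each of the 27 listed genes at day 3 and at day 15, with bars of 1 SE from limma; filled points are those called at adjusted p under 0.05. GREB1 lies at 0.47 at day 15 with a wide bar, and most other points lie within 0.3 of 0.

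GREB1 in MDA-MB-231 was a low-level gene, at 1.51, 1.53 and 1.43 CPM in the control libraries, 2.15, 2.08 and 2.08 CPM at day 3 and 2.10, 2.16 and 2.02 CPM at day 15 (65 to 98 reads). All doxycycline libraries were above all controls. The limma difference was 0.48 (SE 0.137, adjusted p = 0.0763) at day 3, which did not pass, and 0.47 (SE 0.137, adjusted p = 0.0327) at day 15. The day 15 call was lost without control 1 (adjusted p = 0.0910), control 2 (0.0866), control 3 (0.0602), day 15 library 1 (0.0823), day 15 library 2 (0.0601) or day 15 library 3 (0.0630), and with the 6 libraries fitted alone (adjusted p = 0.0632). TIPARP was at 96.1, 95.0 and 94.2 CPM in the control libraries, 102, 103 and 99.5 CPM at day 3 and 114, 114 and 109 CPM at day 15, with all day 15 libraries above the rest, and rose at day 15 (0.24, SE 0.0290, adjusted p = 3.50e-06) and from day 3 to day 15 (0.15, SE 0.0290, adjusted p = 0.00400). The latter call was lost without trend and robust moderation (adjusted p = 0.0876). MYBL1, a relative of MYB, was at 141, 146 and 152 CPM in the control libraries, 143, 140.3 and 147 CPM at day 3 and 161, 156 and 157 CPM at day 15. Its day 15 difference of 0.11 (SE 0.0295, adjusted p = 0.0189) was lost without control 1 (adjusted p = 0.143), control 2 (0.0865) or day 15 library 1 (0.0940), and its change between the days, 0.14 (adjusted p = 0.00798), without day 3 library 1 (adjusted p = 0.0657), day 3 library 2 (0.0772) or day 15 library 1 (0.0548).

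IGFBP4 was at 1205, 1169.9 and 1153 CPM in the control libraries, 1049, 1027 and 1055 CPM at day 3 and 1075, 1075 and 1051 CPM at day 15. Every doxycycline library was below every control, and the limma difference was -0.17 (SE 0.0204, adjusted p = 3.84e-06) at day 3, then -0.14 (SE 0.0204, adjusted p = 5.06e-05) at day 15. Both calls held with each library left out, and neither without trend and robust moderation (adjusted p = 0.0553 for each). AREG was at 41.5, 43.0 and 43.8 CPM in the control libraries, 38.7, 39.2 and 38.2 CPM at day 3 and 35.6, 36.1 and 38.9 CPM at day 15, and its day 15 difference was -0.21 (SE 0.0412, adjusted p = 0.00154). All AREG doxycycline libraries were below the controls. At day 3 its difference of -0.15 had an adjusted p of 0.0712, and passed with the 6 libraries alone (0.028).

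HSPB8 in MDA-MB-231 was at 12.5, 12.8 and 11.7 CPM in the control libraries, 13.1, 11.6 and 12.2 CPM at day 3 and 9.95, 10.9 and 9.11 CPM at day 15. It fell at day 15 (-0.30, SE 0.0729, adjusted p = 0.0102), a call lost without control 1 (adjusted p = 0.0511), control 2 (0.0765) or day 15 library 3 (0.0652), and from day 3 to day 15 (-0.30, adjusted p = 0.0176), a call lost without day 3 library 1 (adjusted p = 0.135), day 15 library 1 (0.0601) or day 15 library 3 (0.105). WFS1 was at 26.1, 24.9 and 24.4 CPM in the control libraries, 24.0, 25.0 and 22.9 CPM at day 3 and 21.8, 21.2 and 20.3 CPM at day 15, with its day 15 libraries below all others. The limma difference was -0.25 (SE 0.0506, adjusted p = 0.00251) at day 15 and -0.18 (adjusted p = 0.0350) from day 3, the latter lost without day 3 library 1 (adjusted p = 0.134), day 3 library 2 (0.197), day 15 library 1 (0.0561) or day 15 library 3 (0.143), and with centring (0.0530). CELSR2 was at 17.8, 16.5 and 17.1 CPM in the control libraries, 18.7, 19.2 and 17.7 CPM at day 3 and 14.9, 15.6 and 16.7 CPM at day 15: it fell from day 3 to day 15 (-0.24, SE 0.0581, adjusted p = 0.0177) and was not called against control. That call was lost without day 3 library 1 (adjusted p = 0.0966), day 3 library 2 (0.118) or day 15 library 1 (0.0985).

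**Figure D5:**
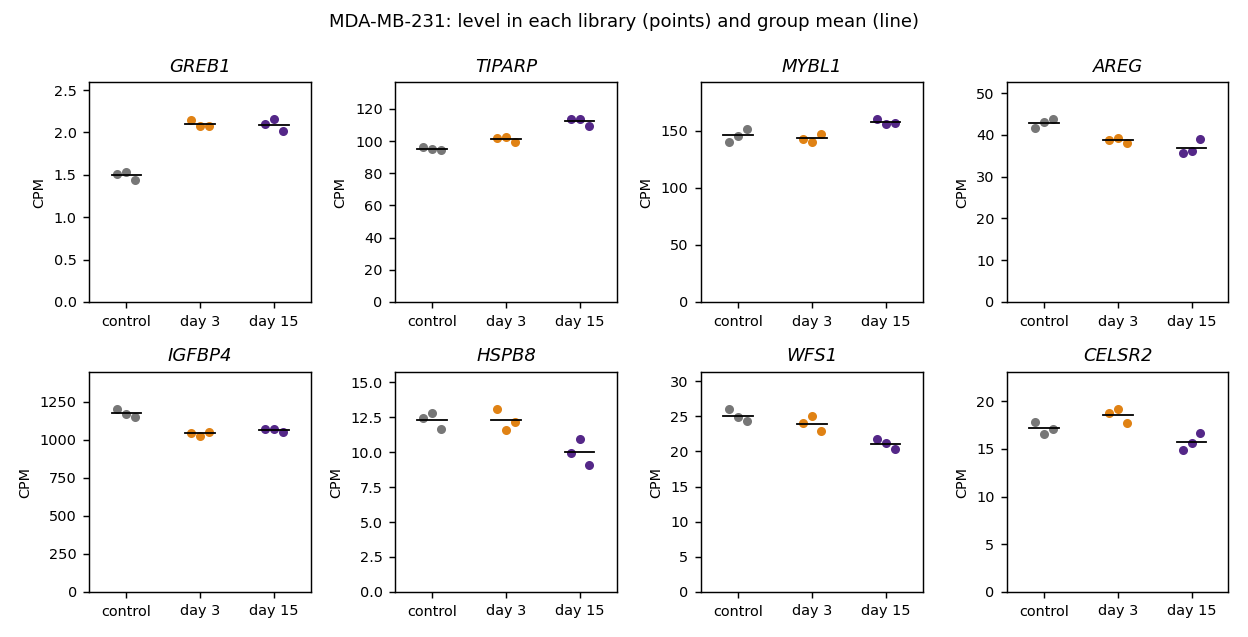
Level in each MDA-MB-231 library (points, CPM on linear axes from 0) and group mean (line) for the 8 genes called in any comparison, 3 libraries per group. GREB1 and TIPARP are higher and IGFBP4 and AREG are lower in all 6 doxycycline libraries, and WFS1 and HSPB8 part from control at day 15.

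The other 19 of the 27 were called in no MDA-MB-231 comparison. Their day 15 differences ran from -0.37 (RERG, 95% interval -0.99 to 0.25) to 0.21 (MYB, -0.045 to 0.47). CALCR was at 5.05, 6.05 and 5.55 CPM in the control libraries, 4.50, 4.73 and 5.20 CPM at day 3 and 4.71, 4.39 and 4.47 CPM at day 15 in MDA-MB-231, with a day 15 difference of -0.29 (adjusted p = 0.0635) and its day 15 libraries below the controls. NRIP1 was at -0.0017 (95% interval -0.11 to 0.10), and STC2 at 0.17 (-0.20 to 0.54). The remaining genes were BCL2, CA12, CISH, FHL2, IL17RB, MAPT, MREG, PKIB, RAPGEFL1, RARA, SGK1, SIAH2, TPD52L1 and ADCY9. FHL2 passed the test without day 15 library 2, at -0.13 (adjusted p = 0.0478) against control.

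Of the wider pathway in MDA-MB-231 at day 15, the membrane estrogen receptor gene GPER1 (-0.35, adjusted p = 0.0259) fell among 7 receptors, and KMT2C (0.11, adjusted p = 0.0224) rose among 12 pioneer and partner factors. The coactivator CARM1 (-0.13, adjusted p = 0.0133) fell. CYP1B1, which hydroxylates estradiol, rose at day 3 (0.21, adjusted p = 1.36e-05) and day 15 (0.50, SE 0.0266, adjusted p = 5.11e-13) and was the 1 of 10 listed enzymes called at day 15. Of 36 other estrogen-induced genes, 6 fell and 0 rose (16.7%, against 8.20% of all MDA-MB-231 genes, with 4.77% lower and 3.42% higher). The 4 largest falls were ASB13 (-0.23, adjusted p = 0.00733), KRT8 (-0.22, adjusted p = 1.69e-06), PTGES (-0.20, adjusted p = 0.00293) and KRT18 (-0.17, adjusted p = 1.13e-04). Of 9 estrogen-repressed genes, EGFR (0.096, adjusted p = 0.00700) rose and EFEMP1 (-0.10, adjusted p = 0.0208) fell.

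Across the lines, 4 of the 27 shared genes were called at day 15 in both (14.8%), 3 in the same direction (11.1%) and 1 in opposite directions (3.7%). Of all 12666 genes listed in both tables, 1.32% were called at day 15 in both, 0.758% in the same direction and 0.561% in opposite directions. TIPARP rose in each (0.20 in T47D and 0.24 in MDA-MB-231), and IGFBP4 (-0.17 and -0.14) and HSPB8 (-0.45 and -0.30) fell in each. AREG rose by 0.44 in T47D and fell by 0.21 in MDA-MB-231 on the log2 scale, with every T47D day 15 library above its controls and every MDA-MB-231 day 15 library below its own. The difference between lines was not tested, since each table was fitted alone.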

How the data were processed

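Total RNA from MDA-MB-231 and T47D cells was sequenced on a HiSeq 4000, per the labels' protocols. The submitters' processing notes name STAR, featureCounts, limma and the GRCh38.p13 build, without versions. The deposited tables, 1 per line, hold log2 values that the authors made per gene; how the authors normalised them, filtered low genes or treated strand is not given in the sources used here, so reads from antisense partners cannot be told apart. Each deposited log2 value matched a whole number of reads (within 0.1) plus about 3 reads on a CPM scale, for 100% of values in all 18 libraries, and CPM were computed back from them. These depths set the precision: members under 100 reads have the widest intervals.

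Each line was fitted on all of its genes with limma 3.58.1 in R 4.3.3 (trend and robust moderation, statmod 1.5.0), with group means, no block and the 9 libraries together. Fold changes are on the log2(CPM + pseudocount) scale and understate changes of low genes. Calls needed an adjusted p (Benjamini-Hochberg, over the whole table) under 0.05. The script was tested on simulated data first. Whether replicates were separate cultures is not in the labels, and the p-values then measure only the spread between libraries, which may be technical. The series' design text speaks of triplicates of parental and Aza-resistant lines, which the sample labels do not name, and the labels were followed.

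The gene set and all lists were chosen with earlier results of these data known. The text names ESR1, PGR, TFF1 and GREB1 whatever their call, every gene of the set called in any comparison, the others by range or interval, up to 4 called genes of each further list by size of change (others by name alone or after seeing values, as FOXA1), and G0S2. Alternatives tried were each library left out, a replicate block, a pseudocount of 1 CPM, only genes with a mean log2 value of 1 or more, centring on the median, no trend or robust moderation, the 6 compared libraries alone, and voom weights on the recovered reads. Some called genes of the further lists are not reported here. Promoters come from RefSeq tables; no gene of the set held the full element, so the stretches with a single arm are printed, a choice made after the search.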

Additional observations from a re-analysis of the deposited data

Results flagged for a closer look

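AREG at both times and ADCY9 at day 15 lay on opposite sides of their controls in the 2 lines, in every library. AREG, the EGF receptor ligand gene, was above all controls in the 3 day 3 libraries of T47D (log2 difference 0.056) and below all controls in those of MDA-MB-231 (-0.15), and the same held at day 15, at 0.44 in T47D and -0.21 in MDA-MB-231. Its adjusted p by limma was 0.754 and 0.0712 at day 3 and 8.95e-06 and 0.00154 at day 15, in the same order. ADCY9, an adenylyl cyclase gene, was above all controls at day 15 in T47D (0.098) and below them in MDA-MB-231 (-0.077), and was called in neither line, with adjusted p of 0.148 and 0.158. At day 3 its libraries overlapped the controls in both lines. The difference between lines was not tested for either gene.

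In T47D the effect at day 15 differed from the effect at day 3 for 15 genes by limma's test of that difference, which is the comparison of day 15 with day 3. The day 15 effect less the day 3 effect, in log2 units, was -1.09 for KRT13, -1.04 for CALCR, -0.69 for TFF1, -0.36 for HSPB8, -0.30 for ABAT and -0.24 for STC2. Smaller shifts downward were -0.16 for PDZK1, -0.15 for ESR1 and -0.092 for CA12. It was positive, at 0.38 for AREG, 0.32 for NRIP1, 0.29 for RERG, 0.21 for MAPT, 0.20 for RAPGEFL1 and 0.19 for MYB. All 3 day 15 libraries lay outside the range of the day 3 libraries for each of the 15.

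In MDA-MB-231 the 2 effects differed for 5 genes by the same test. The day 15 effect less the day 3 effect was -0.30 for HSPB8, -0.24 for CELSR2 and -0.18 for WFS1, and positive at 0.15 for TIPARP and 0.14 for MYBL1. CELSR2 was called in neither comparison with control, at 0.11 (adjusted p = 0.411) at day 3 and -0.12 (adjusted p = 0.188) at day 15.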

How the results depend on the processing

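Over the 6 comparisons, 50 gene results were called by limma. Of these, 30 kept their call in every alternative run (up to 13 per comparison), 34 kept it with each library left out, 0 changed sign in any alternative, and 24 uncalled results were called in at least 1. The number of genes of the set called in T47D was 2 to 3 at day 3 with a library left out (4 with all), 16 to 22 at day 15 (18) and 10 to 21 between the days (15). In MDA-MB-231 it was 1 throughout at day 3 (1), 4 to 7 at day 15 (7) and 1 to 6 between the days (5). The calls over all genes moved as well. In T47D they ran from 182 to 214 at day 3 (277 with all libraries), 930 to 3705 at day 15 (1659) and 403 to 2604 between the days (824). In MDA-MB-231 they ran from 119 to 259 (253), 457 to 1897 (1173) and 124 to 1664 (763), in the same order. With the 6 compared libraries alone, the day 3 count was 10 in T47D, where TFF1, STC2, FHL2, TIPARP, IGFBP4 and RERG were added, and 2 in MDA-MB-231, with AREG. Those fits called 921 and 476 of all genes. Without trend and robust moderation, the MDA-MB-231 counts were 1 at day 3 (GREB1 in place of IGFBP4), 4 at day 15 and 0 between the days (5 at an unadjusted p under 0.05). That fit called 63, 232 and 32 of all genes. Over all comparisons, 17 calls were lost without trend and robust moderation, 7 with the compared libraries alone, 6 with centring and 6 with the block, and 0 with the other pseudocount, the low filter (where a gene passed it) or voom weights. The cause was not tested. Centring moved the median of all genes by under 0.1 on the log2 scale.

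Equal replicate numbers did not clearly pair the libraries, and the lines differed. Deviations from group means were correlated between control and either doxycycline group. In T47D the correlation ran from -0.41 to 0.073 for equal numbers and from -0.27 to 0.393 for unequal ones. In MDA-MB-231 it was above 0 for all equal numbers, at 0.007 to 0.28, against -0.261 to 0.194 for unequal ones. Whether equal numbers shared a culture in that line is not in the labels. A library correlated best with its own number in 2 of 3 at most. With the replicate number as a block, the counts in T47D were 3 at day 3, 17 at day 15 and 11 between the days, and in MDA-MB-231 3, 8 and 5. Of all genes it called 214, 1202 and 511 in T47D (277, 1659 and 824 without it) and 637, 2273 and 1788 in MDA-MB-231 (253, 1173 and 763 without it). AREG and TIPARP joined at day 3 and CALCR at day 15 in MDA-MB-231. In T47D the calls of PGR at day 3 (adjusted p = 0.152) and RERG at day 15 (0.0666) were lost, and between the days those of CA12 (0.13), MYB (0.0594), PDZK1 (0.0585) and RAPGEFL1 (0.071).

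Depth limits the genes on few reads. BCL2, ELOVL2, KCNK5, RET, KRT13 and TFF1 in T47D and RERG, IL17RB, CISH, STC2, GREB1, MAPT and RAPGEFL1 in MDA-MB-231 were among those with the fewest, and their intervals are wide.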

Other observations

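Between day 3 and day 15 in T47D, further genes of the estrogen pathway changed. Of 14 pioneer and partner factors RUNX1 (0.15, adjusted p = 0.00858), TFAP2A (0.15, 0.0127) and GRHL2 rose and AHR (-0.17, 0.0179) fell. Among 39 other estrogen-induced genes 4 rose and 8 fell (30.8%, against 5.58% of all T47D genes). EGR3 was at 1.33 (SE 0.204, adjusted p = 0.00107), TSKU at -0.85 (SE 0.128, adjusted p = 9.48e-04), and SYBU, a microtubule linker, at -0.54 (SE 0.137, adjusted p = 0.0341).

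In MDA-MB-231 at day 3, the cell cycle factor gene FOXM1 fell (-0.11, SE 0.0223, adjusted p = 0.00766), and E2F1 (-0.14, SE 0.0363, adjusted p = 0.0470), KRT18 (-0.13, SE 0.0269, adjusted p = 0.00457) and KRT8 (-0.13, SE 0.0261, adjusted p = 0.00629) were the 3 called of 36 other estrogen-induced genes, all lower. Those 3 are 8.33% of that list, against 1.77% of all MDA-MB-231 genes. STS fell there at day 3 (-0.17, SE 0.0315, adjusted p = 0.00174), and CCNG2, a cyclin repressed by estrogen, rose (0.18, SE 0.0393, adjusted p = 0.00957). From day 3 to day 15 FOXM1 rose (0.087, SE 0.0223, adjusted p = 0.0222) and CCNG2 fell (-0.16, SE 0.0393, adjusted p = 0.0163).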
